A study of Homo sapiens with 4 samples.

Results

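Olfactory receptor gene clusters were examined for lamin B1 enrichment in 2 human prostate cancer cell lines. The clusters are 9 stretches of hg19 sequence on 6 chromosomes, given by position. They hold 203 bins of 40 kb, of 71799 bins with a value in LNCaP and 71707 in VCaP, and every one of the 203 had a value in both lines. Each cluster was set against up to 2 Mb of sequence on either side, 795 bins in all. LNCaP is an established prostate adenocarcinoma line, and VCaP an established line from a bone metastasis of prostate cancer. Both were growing cultures, fixed with formaldehyde, and each gave 1 lamin B1 chromatin immunoprecipitation (ChIP) library and 1 input library without antibody. The lines were kept in different media, so line and medium cannot be told apart. The 4 libraries form 4 groups of 1, so no value below has a replicate check and no test between the lines was possible.

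Olfactory receptors are G protein-coupled receptors that detect odorants in the sensory neurons of the nose. Their genes form the largest gene family of the human genome and lie in tandem clusters with many pseudogenes. Each sensory neuron expresses a single receptor allele, and in most other tissues the clusters are silent and packed as heterochromatin. Lamin B1 belongs to the filament network that lines the inner face of the nuclear envelope, and silent, AT-rich, gene-poor chromatin is commonly found against it. OR51E1 and OR51E2, 2 receptors of the 11p15 cluster, are known for their expression in prostate epithelium.

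The clusters are named here by chromosome band. Positions are in hg19, are counted from 1, and span the 40 kb bins that touch each cluster. The 11p15 cluster covered 48 bins on chromosome 11 from 4280001 to 6200000. The 11q11 cluster covered 40 bins from 55000001 to 56600000, beside the centromere, and the 11q24 cluster 22 bins from 123600001 to 124480000 of the same chromosome. On chromosome 1, the 1q23 cluster covered 11 bins from 158320001 to 158760000, and the 1q44 cluster, close to the end of the long arm, 32 bins from 247600001 to 248880000. The 14q11 cluster covered 13 bins on chromosome 14 from 20200001 to 20720000. The 6p22 cluster covered 14 bins on chromosome 6 from 29000001 to 29560000. The 9q33 cluster covered 10 bins on chromosome 9 from 125200001 to 125600000, and the 12q13 cluster 13 bins on chromosome 12 from 55480001 to 56000000.

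The files hold no gene names, so the label was not checked by position, and genes were looked up by name and order in a RefSeq table of assembly GRCh38.p14, without its coordinates. Each cluster was linked by 1 receptor, chosen from general knowledge of its band, to a run of receptor genes with at most 10 other genes between neighbouring receptors. The link was not made by coordinates, so the counts below are for the runs and not for the hg19 stretches. The runs held 439 of the table's 872 receptor genes, 240 protein-coding and 199 pseudogenes. The 11q11 run was the longest, with 117 receptor genes from OR4C50P to OR5BP1P, 69 of them pseudogenes. The 11p15 run held 103 receptor genes from OR55B1P to OR52W1. It encloses OR51E1, OR51E2 and the beta-globin genes HBB, HBD, HBG1, HBG2 and HBE1, which encode the oxygen-carrying chains of red blood cells. The 1q44 run held 56 receptor genes from OR2B11 to OR14I1, the 11q24 run 44 from OR6X1 to OR8Q1P and the 14q11 run 30 from OR11H2 to OR11H4. The 12q13 run held 28 from OR9K1P to OR10AE3P, the 6p22 run 25 from OR2AD1P to OR2H2, the 1q23 run 21 from OR10T2 to OR10AA1P and the 9q33 run 15 from OR1J2 to OR1K1. The neighbours by name are CD1E, of the lipid-antigen-presenting CD1 family, and MNDA beside the 1q23 run, NLRP3, an inflammasome sensor, near the 1q44 run, GABBR1, a GABA-B receptor subunit, beside the 6p22 run, and PDCL beside the 9q33 run. No hg19 gene positions were used, so no single bin below is assigned to a gene.

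The receptor genes share a base composition that the choice of clusters did not use. Of the 439 receptor genes in the runs, 200 had a promoter in the RefSeq table (GRCh38.p14). In the 250 bases before the gene start, their median GC content was 36.4% (interquartile range 31.6 to 41.2), against 58.0% over all 35116 promoters of that table. The dinucleotide CG, counted on the given strand, occurred 5 times or fewer in 196 of the 200, or 98.0%, and in 38.1% of all promoters. Median GC content was lowest for the 11q11 run, at 31.2%, and highest for the 11q24 and 1q23 runs, at 40.4%. The promoter letters below show this composition for a receptor of the 11q11 run without any CG, the first receptor of the 1q23 run, the prostate-expressed OR51E1 of the 11p15 run, and the non-receptor neighbour GABBR1. All are the 250 bases before the gene start, 5′ to 3′ on the gene's own strand, from RefSeq with build GRCh38.p14, with every CG in capitals.
OR5L2 (+ strand): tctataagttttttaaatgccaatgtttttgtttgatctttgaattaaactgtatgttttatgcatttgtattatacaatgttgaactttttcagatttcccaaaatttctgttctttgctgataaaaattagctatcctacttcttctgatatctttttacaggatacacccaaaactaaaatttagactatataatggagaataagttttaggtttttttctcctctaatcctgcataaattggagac
OR10T2 (- strand): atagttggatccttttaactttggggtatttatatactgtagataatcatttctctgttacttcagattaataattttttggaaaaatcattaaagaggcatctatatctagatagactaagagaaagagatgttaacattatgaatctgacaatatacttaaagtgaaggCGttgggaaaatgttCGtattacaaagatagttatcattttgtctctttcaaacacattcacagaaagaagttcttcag
OR51E1 (+ strand): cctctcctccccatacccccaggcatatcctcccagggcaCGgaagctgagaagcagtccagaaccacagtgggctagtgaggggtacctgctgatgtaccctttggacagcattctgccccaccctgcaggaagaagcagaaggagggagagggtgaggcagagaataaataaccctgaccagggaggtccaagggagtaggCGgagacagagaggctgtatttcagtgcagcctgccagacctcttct
GABBR1 (- strand): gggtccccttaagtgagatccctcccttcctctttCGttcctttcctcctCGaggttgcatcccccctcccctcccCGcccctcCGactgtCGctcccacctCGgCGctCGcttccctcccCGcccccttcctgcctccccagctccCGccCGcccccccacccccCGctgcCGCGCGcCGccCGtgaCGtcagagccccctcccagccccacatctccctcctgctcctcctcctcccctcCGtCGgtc
GC content was 27.2% with 0 CG for OR5L2, 29.2% with 2 for OR10T2, 57.6% with 2 for OR51E1 and 72.4% with 20 for GABBR1. OR51E1 therefore had a GC content near that of all promoters, but few CG, like 98.0% of the receptors.

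Enrichment is the deposited log2 ratio of lamin B1 ChIP over input per bin, on which 0 means equal scaled signal in both libraries. A deposited hidden Markov model labels each bin AD or iAD. AD bins averaged 0.43 in LNCaP, against -0.15 for iAD bins, and 0.58 against -0.11 in VCaP, and AD bins are called associated below. Noise is the SD of a single deposited value judged from bins 3 apart, 0.15 in LNCaP, 0.23 in VCaP and, with both added in quadrature, 0.27 for their difference. Measured on the difference itself it was 0.20, which would put more differences beyond noise, as given below. A difference between region means is called beyond noise where it exceeds the 95% limit of a normal distribution with its noise SD. This covers variation between bins of these libraries and not variation between cultures. Other flank widths, medians, averaging and zero points were judged by the limit of the main value, which was not recomputed. The number of reads is unknown, and so is the counting error.

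Across both lines, most of the receptor cluster sequence carried the associated state. In LNCaP, 155 of the 203 cluster bins (76.4%) were associated, against 37.8% of all bins. In VCaP, 141 (69.5%) were, against 44.4% of all bins. The median log2 enrichment of cluster bins was 0.39 in LNCaP (interquartile range 0.17 to 0.60), against 0.06 over all bins, and 0.39 in VCaP (0.16 to 0.53), against 0.19 over all bins. Values over 0 were found in 174 cluster bins in LNCaP (85.7%, against 56.8% of all bins) and in 175 in VCaP (86.2%, against 66.9%). With the 9 clusters weighted equally, the median was 0.44 in LNCaP and 0.33 in VCaP. Bins associated in both lines numbered 120 of 203 (59.1%), against 20.6% of all common bins. Another 35 (17.2%, against 17.2% of all bins) were associated in LNCaP only, 21 (10.3%, against 23.8%) in VCaP only and 27 (13.3%, against 38.4%) in neither.

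**Figure D1:**
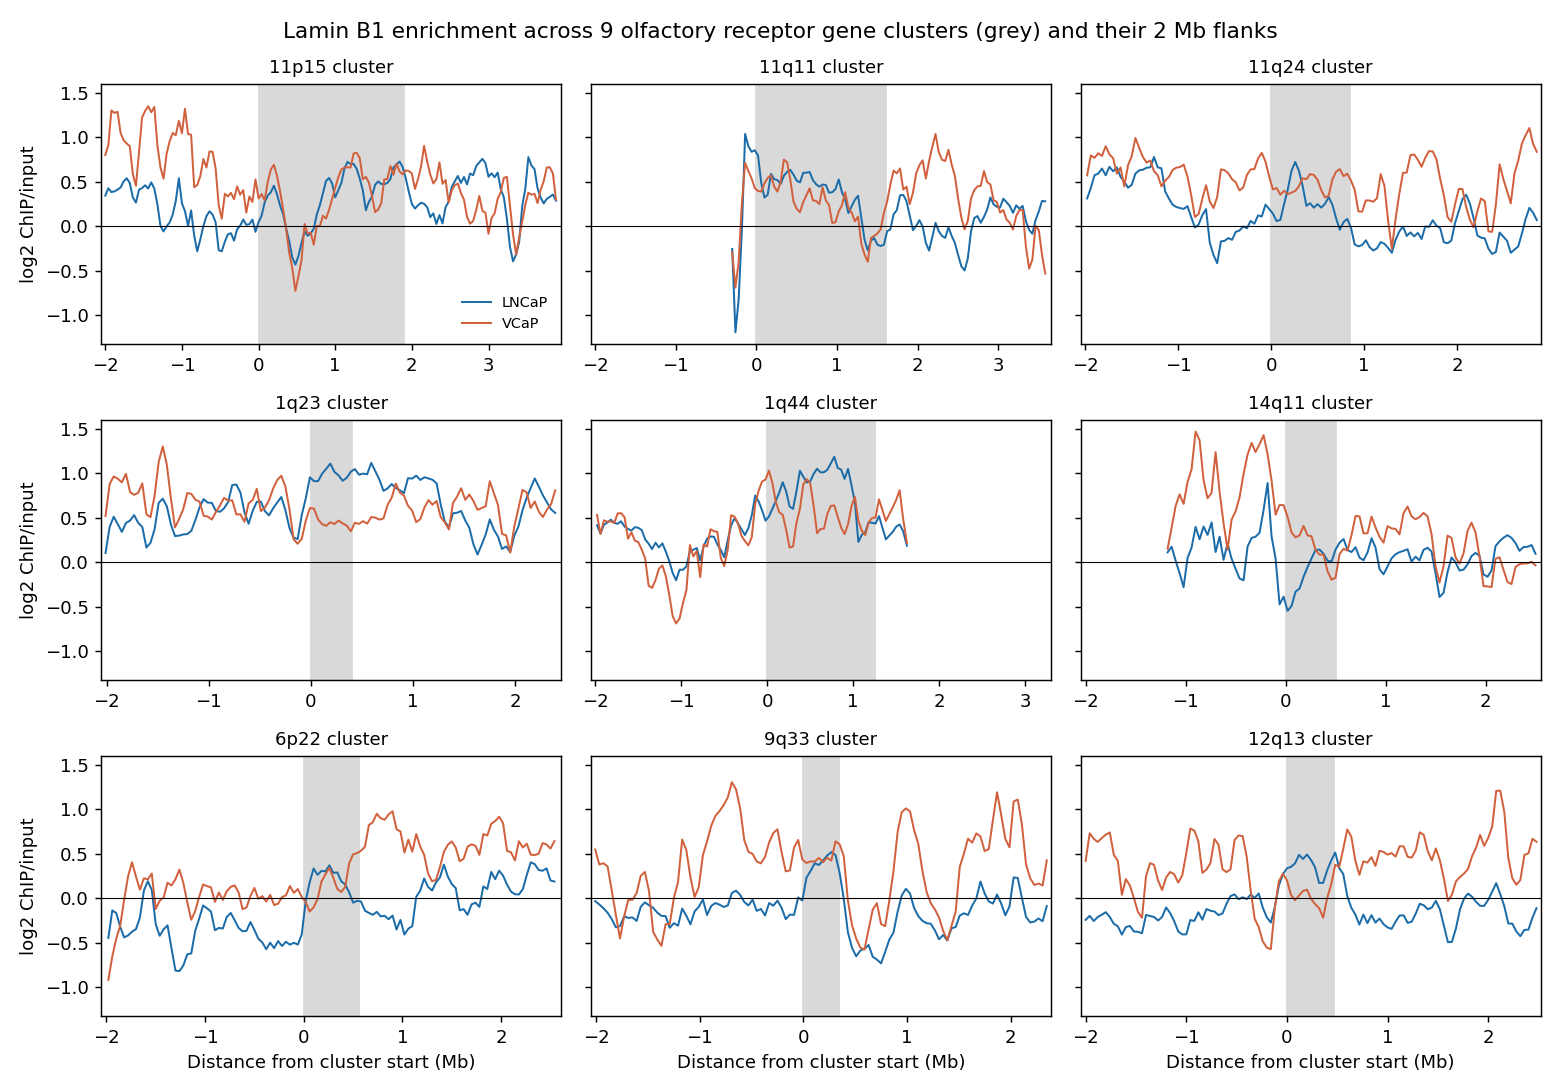
Deposited log2 ChIP over input (vertical axis) of LNCaP (blue) and VCaP (orange) against distance in Mb from the start of each cluster, with the cluster in grey and up to 2 Mb on each side. In the 12q13 panel the LNCaP line rises inside the cluster (mean 0.38, flanks -0.17) while the VCaP line drops there (mean 0.04, flanks 0.40).

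The first question was whether a cluster stood out from the sequence around it. In LNCaP, 8 of the 9 clusters had a higher mean log2 enrichment than their flanks, 7 of them beyond noise. Over all consecutive windows of 14 bins, the median cluster size, 47.8% lay above their flanks and 25% did so beyond noise. No share was taken for windows of other sizes in either line. The noise SD falls with size, in LNCaP from 0.09 at 9q33 (10 bins) to 0.05 at 11p15 (48 bins). The cluster minus flank difference had a median of 0.35 over the 9 clusters and ran from -0.19 at 14q11 to 0.55 at 12q13. The 14q11 cluster alone lay below its flanks beyond noise, which 25.8% of windows did. The flank bins themselves were 37.4% associated in LNCaP, close to the 37.8% of all bins.

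In VCaP the same clusters did not stand out upwards. Only 2 of the 9, 1q44 and 9q33, had a higher mean than their flanks, and 1q44 alone did so beyond noise. Over all windows of 14 bins, 51.4% lay above their flanks and 18.1% did so beyond noise. The other 7 clusters lay below their flanks, 3 of them beyond noise (11p15, 14q11 and 12q13), against 17.8% of windows. The median difference over the clusters was -0.15, with a range of -0.36 to 0.31. The VCaP flank bins were 74.7% associated, against 44.4% of all bins, with a median log2 enrichment of 0.47.

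**Figure D2:**
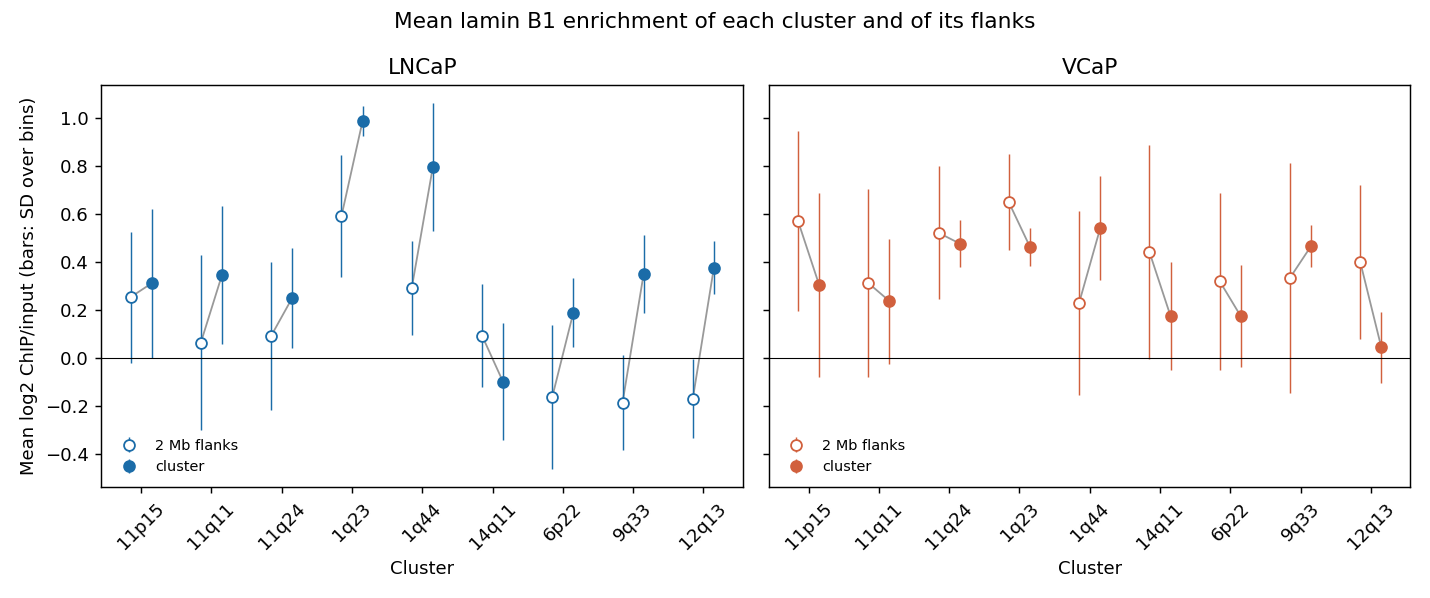
Mean log2 ChIP over input (vertical axis) of each cluster (filled points) and of its 2 Mb flanks (open points) in LNCaP (left) and VCaP (right), with bars for the SD over bins. The filled point is the higher of the pair at 8 of 9 clusters in LNCaP and at 2 of 9 in VCaP.

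The small clusters on chromosomes 12 and 9 lay between flanks that were low in LNCaP, and the 6p22 cluster had a low flank on the left only. The 12q13 cluster had a mean log2 enrichment of 0.38 ± 0.11 (SD, 13 bins) in LNCaP, between flanks at -0.18 on the left and -0.16 on the right. All 13 of its bins were associated in LNCaP, against 3 of 100 flank bins, and the associated run that held them was 640 kb long, from 55440001 to 56080000. In VCaP the same cluster had a mean of 0.04 ± 0.15, its flanks 0.30 and 0.50, and 1 of its 13 bins was associated, against 85 of 100 flank bins. The cluster exceeded its flanks by 0.55 in LNCaP (noise SD 0.08) and differed from them by -0.36 in VCaP (0.12). Its highest bin was the same in both lines, from 55960001 to 56000000, at 0.52 in LNCaP and 0.38 in VCaP. That bin was the only associated one in VCaP, and it lies partly outside the cluster, whose given end is 55970000. The lowest was from 55800001 to 55840000 in LNCaP, at 0.17, and from 55840001 to 55880000 in VCaP, at -0.22.

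The 9q33 cluster was associated in both lines. Its mean was 0.35 ± 0.16 (SD, 10 bins) in LNCaP and 0.47 ± 0.09 in VCaP. In LNCaP 9 of its 10 bins and 0 of its 100 flank bins were associated, and the associated run, from 125240001 to 125600000, began in the second cluster bin and ended with the last. The flank means were -0.13 and -0.24 in LNCaP and 0.37 and 0.30 in VCaP. In VCaP all 10 bins were associated within a longer run of 1600 kb, and 64 of 100 flank bins were too. It exceeded its flanks by 0.53 in LNCaP (noise SD 0.09) and by 0.13 in VCaP (0.13), the second within noise. Enrichment dropped at the right edge in both lines. The last 5 cluster bins averaged 0.44 and the next 5 bins -0.44 in LNCaP, and 0.51 and -0.17 in VCaP. The highest LNCaP bin, from 125480001 to 125520000, reached 0.52, and the lowest was the first, at -0.02. In VCaP the highest, from 125520001 to 125560000, was 0.64 and the lowest, from 125240001 to 125280000, 0.40.

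The 6p22 cluster, next to the major histocompatibility region, had close means in the lines, 0.19 ± 0.15 (SD, 14 bins) in LNCaP and 0.17 ± 0.21 in VCaP, but its associated bins differed. In LNCaP 10 of 14 were associated, in a run of 400 kb from 29040001 to 29440000, between flanks with 0 of 50 on the left and 17 of 50 on the right. The flank means were -0.37 and 0.04 in LNCaP and 0.02 and 0.62 in VCaP. In VCaP 3 of 14 were associated, the last 3 bins, which began a run of 2840 kb from 29440001 onwards. No bin was associated in both lines, against 20.6% of all common bins. The LNCaP run ended at the position where the VCaP run began. Like values carried different labels here. The bin from 29240001 to 29280000 was 0.37 and associated in LNCaP, and 0.34 and not associated in VCaP. Associated LNCaP bins went down to 0.16. The cluster minus flank difference was 0.35 in LNCaP (noise SD 0.07) and -0.15 in VCaP (0.11, within noise). The highest LNCaP bin, from 29240001 to 29280000, was 0.37, and the lowest, from 29480001 to 29520000, was -0.05. The VCaP bins ran from -0.15, at 29040001 to 29080000, to 0.51 in the last bin.

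The clusters on chromosome 1 had the highest LNCaP values of the 9. The 1q23 cluster had a mean of 0.98 ± 0.06 (SD, 11 bins) in LNCaP, above 99.6% of all LNCaP bins taken singly, and 0.46 ± 0.08 in VCaP, above 72.3% of VCaP bins. Its LNCaP bins ran from 0.91 (158360001 to 158400000) to 1.11 (158520001 to 158560000). Its VCaP bins ran from 0.35 in the last bin to 0.61 in the first. All 11 bins were associated in both lines, deep within runs of 6160 kb in LNCaP and 6200 kb in VCaP. The state alone therefore did not show the difference between the means. The flank means were 0.52 and 0.66 in LNCaP and 0.69 and 0.60 in VCaP. Cluster minus flanks gave 0.40 in LNCaP (noise SD 0.08) and -0.19 in VCaP (0.12, within noise).

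At 1q44 the mean was 0.79 ± 0.27 (SD, 32 bins) in LNCaP and 0.54 ± 0.22 in VCaP, and all 32 bins were associated in both lines. The associated run reached the end of the chromosome at 249250621 in both, starting at 246840001 in LNCaP and at 247160001 in VCaP. The right flank held only 7 bins before that end. Against the flanks the cluster lay 0.50 higher in LNCaP (noise SD 0.06) and 0.31 higher in VCaP (0.09), which made it the only cluster of the 9 above its flanks beyond noise in both lines. Values in LNCaP rose to 1.19 at 248360001 to 248400000 and dropped to 0.23 at 248640001 to 248680000. VCaP was highest in the first bin, at 1.03, and lowest, at 0.16, from 247840001 to 247880000. In VCaP the 7 right flank bins, with a mean of 0.57, lay level with the cluster, and the difference rested on the left flank, with a mean of 0.18.

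On chromosome 11, the 11p15 and 11q11 clusters were uneven inside in both lines, and the 11q24 cluster in LNCaP. At 11p15 the mean was 0.31 ± 0.31 (SD, 48 bins) in LNCaP and 0.30 ± 0.38 in VCaP. A first associated part ended at 4600000 in both lines, with a mean of 0.34 over 6 bins in LNCaP, where the first 2 cluster bins were not associated (mean 0.08), and 0.47 over 8 cluster bins in VCaP. A trough outside the associated state followed, from 4600001 to 5080000 in LNCaP (12 bins, mean -0.13) and from 4600001 to 5240000 in VCaP (16 bins, mean -0.14). The lowest bin was the same in both lines, from 4760001 to 4800000, at -0.43 in LNCaP and -0.73 in VCaP. The rest of the cluster was associated, with a mean of 0.51 over 28 bins in LNCaP and 0.54 over 24 bins in VCaP. Highest values were 0.73 in LNCaP (6120001 to 6160000) and 0.83 in VCaP (5560001 to 5600000).

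Across the 48 bins of the 11p15 cluster, the lines correlated with a Pearson r of 0.87, and across its 100 flank bins with 0.15. These bins share libraries and averaged neighbours, and the coefficients only describe the profile. Cluster r was also above flank r at 12q13 (0.71 and 0.27) and at 11q11, given below. It was below flank r at 11q24 (-0.42 and 0.50), 1q23 (-0.46 and 0.07) and 1q44 (0.11 and 0.88). The same held at 14q11 (-0.70 and 0.36), 6p22 (-0.34 and 0.53) and 9q33 (0.17 and 0.78). The cluster minus flank difference was 0.06 in LNCaP (noise SD 0.05, within noise) and -0.27 in VCaP (0.07). With flanks of 1 Mb the LNCaP value was 0.14, and for medians over bins 0.11, both beyond noise. In VCaP all 50 bins of the left flank were associated, with a mean of 0.78, against 18 of 50 and a mean of 0.16 in LNCaP. The right flank had a mean of 0.35 in LNCaP (45 of 50 associated) and 0.36 in VCaP (36 of 50). The LNCaP difference rested on the left flank, since the right flank mean lay above the cluster mean of 0.31.

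The 11q11 cluster had a mean of 0.35 ± 0.29 (SD, 40 bins) in LNCaP and 0.24 ± 0.26 in VCaP. Its centromeric side was associated and its far side was not, in both lines. The associated part ended at 56280000 in LNCaP (32 bins in the cluster, mean 0.47) and at 55920000 in VCaP (23 bins, mean 0.40). The lowest bin was again shared, from 56360001 to 56400000, at -0.27 in LNCaP and -0.40 in VCaP. LNCaP was highest in the first bin, at 0.80, and VCaP from 55320001 to 55360000, at 0.75. Pearson r between the lines was 0.77 over the 40 cluster bins and 0.31 over the 58 flank bins. The left flank held only 8 bins, next to the centromeric gap. Its difference from the flanks was 0.28 in LNCaP (noise SD 0.05) and -0.08 in VCaP (0.08, within noise). With flanks of 1 Mb the VCaP value was -0.23, beyond noise.

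At 11q24 the mean was 0.25 ± 0.21 (SD, 22 bins) in LNCaP and 0.48 ± 0.10 in VCaP. In LNCaP 14 of 22 bins were associated, in a run of 560 kb from 123720001 to 124280000 that lay wholly within the cluster. In VCaP all 22 were, within a run of 3560 kb. The right flank had 0 of 50 bins associated in LNCaP and 39 of 50 in VCaP. LNCaP was highest from 123840001 to 123880000, at 0.72. The lowest LNCaP bin, from 124320001 to 124360000, at -0.04, was the highest VCaP bin, at 0.64, and the VCaP minimum was 0.33 from 124160001 to 124200000. Its difference from the flanks was 0.16 in LNCaP (noise SD 0.06) and -0.04 in VCaP (0.09, within noise). The LNCaP difference rested on the right flank, since the left flank mean of 0.27 lay above that of the cluster.

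The 14q11 cluster was the exception in LNCaP. Its mean was -0.10 ± 0.24 (SD, 13 bins), and 0 of its 13 bins were associated, against 25 of 80 flank bins. In VCaP the mean was 0.18 ± 0.22 and the first 7 of 13 bins were associated, as the end of a run of 1440 kb from 19040001 to 20480000. The first bin was the lowest in LNCaP, at -0.55, and the highest in VCaP, at 0.51. The LNCaP maximum was 0.14 from 20520001 to 20560000, and the VCaP minimum -0.20 from 20640001 to 20680000. Pearson r between the lines over the 13 bins was -0.70. The cluster lay below its flanks in both lines, by -0.19 in LNCaP (noise SD 0.08) and -0.27 in VCaP (0.12). The LNCaP value was within noise with values moved 1 entry upstream (-0.12), with the averaging undone (-0.10) and for medians over bins (-0.11), and the VCaP value for medians over bins (-0.11). The VCaP difference rested on the left flank, 30 bins beside the gap of the short arm, with a mean of 0.86. The VCaP right flank, with a mean of 0.19, lay level with the cluster. In LNCaP both flank means, 0.14 on the left and 0.07 on the right, lay above the cluster.

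**Figure D3:**
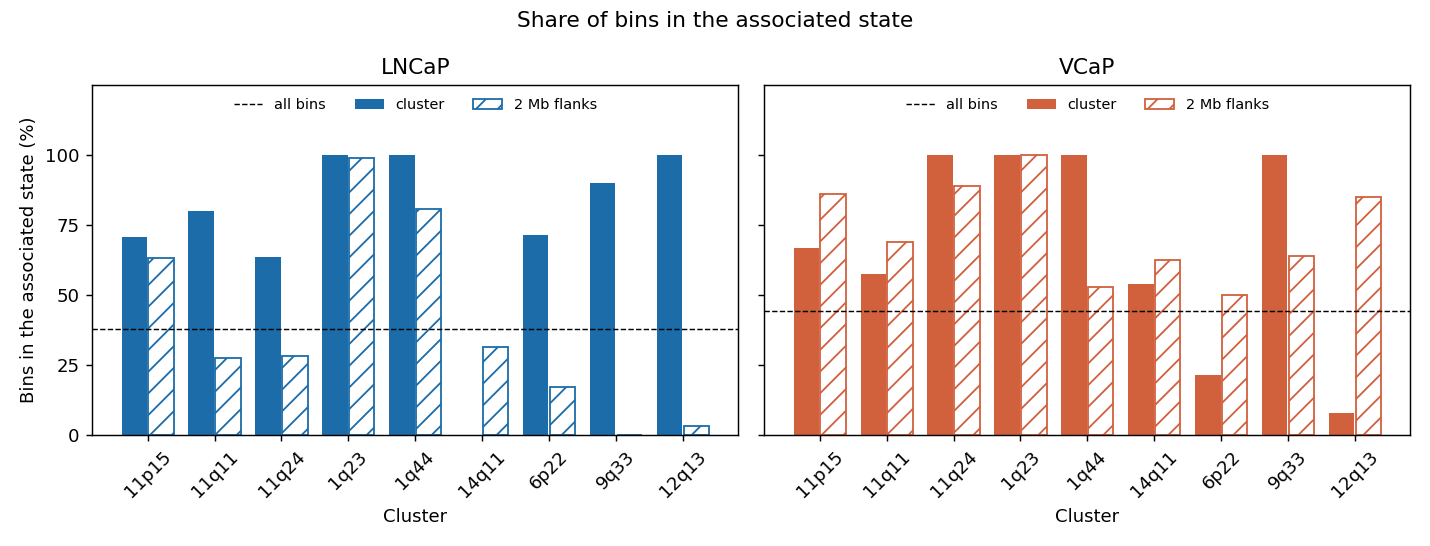
Share of bins in the associated state (vertical axis, percent) for each cluster (filled bars) and its flanks (hatched bars) in LNCaP (left) and VCaP (right), with a dashed line at the share of all bins. In LNCaP the filled bar exceeds the hatched one at 8 of 9 clusters, and in VCaP at 3 of 9. No share of all windows was taken for these counts.

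The second question was how the lines differed inside the clusters. Over the 203 cluster bins the mean VCaP minus LNCaP difference was -0.07 (noise SD 0.03), against 0.12 over all common bins and 0.35 over the flank bins. With 1 cluster left out at a time, the mean over cluster bins ran from -0.10 (without 11q24) to -0.03 (without 1q44). Single bins that were higher in LNCaP beyond noise numbered 14 (6.90%, against 8.17% of all bins), and 9 (4.43%, against 19.5%) were higher in VCaP beyond noise. Among the flank bins, 12 (1.51%) were higher in LNCaP and 262 (33.0%) in VCaP. The 14 bins higher in LNCaP all lay on chromosome 1, 6 at 1q23 and 8 at 1q44. The 9 higher in VCaP lay at 14q11 (5), 11q24 (2) and 6p22 (2).

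By cluster, the mean was higher in LNCaP beyond noise at 1q23 (-0.52, noise SD 0.14), 12q13 (-0.33, 0.13) and 1q44 (-0.25, 0.08). It was higher in VCaP beyond noise at 14q11 (0.27, 0.13) and 11q24 (0.23, 0.10). At 11p15 (-0.01, 0.07), 11q11 (-0.11, 0.07), 6p22 (-0.02, 0.13) and 9q33 (0.12, 0.15) the difference was within noise, which does not show that the lines were alike there. With noise measured on the difference itself, 11q11 was beyond noise too (noise SD 0.05). No share of all windows was taken for these calls, so they do not set the clusters apart from other regions. The calls also depend on the zero point of the lines. With their genome medians aligned, 1q23, 12q13 and 1q44 stayed beyond noise, 11p15 (-0.14) and 11q11 (-0.24) came to lie beyond it with LNCaP higher, and 14q11 (0.14) and 11q24 (0.09) fell within it. The flanks lay higher in VCaP at 8 of 9 clusters, by up to 0.57 at 12q13. Over all common bins VCaP was higher by 0.12 on average, and the share of windows higher in VCaP was not determined. The flank differences at 1q23 (0.06, noise SD 0.05) and at 1q44 (-0.06, 0.06) were within noise.

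At all 9 clusters the VCaP minus LNCaP difference inside was below that of the flanks, and at 6 of them beyond noise. Of all windows of 14 bins, 48.2% lay below their flanks in this measure and 14.7% did so beyond noise. The gap was largest at 12q13, at -0.90 (noise SD 0.14), followed by 1q23 at -0.58 (0.15), 6p22 at -0.50 (0.13), 9q33 at -0.40 (0.16), 11q11 at -0.36 (0.10) and 11p15 at -0.32 (0.08). At 11q24 (-0.20, 0.11), 1q44 (-0.19, 0.10) and 14q11 (-0.07, 0.14) it was within noise. With noise measured on the difference itself, 11q24 (noise SD 0.08) and 1q44 (0.08) were beyond it as well, and 14q11 (0.10) was not. This comparison does not depend on the zero point of either line, as a constant shift cancels between a cluster and its flanks.

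**Figure D4:**
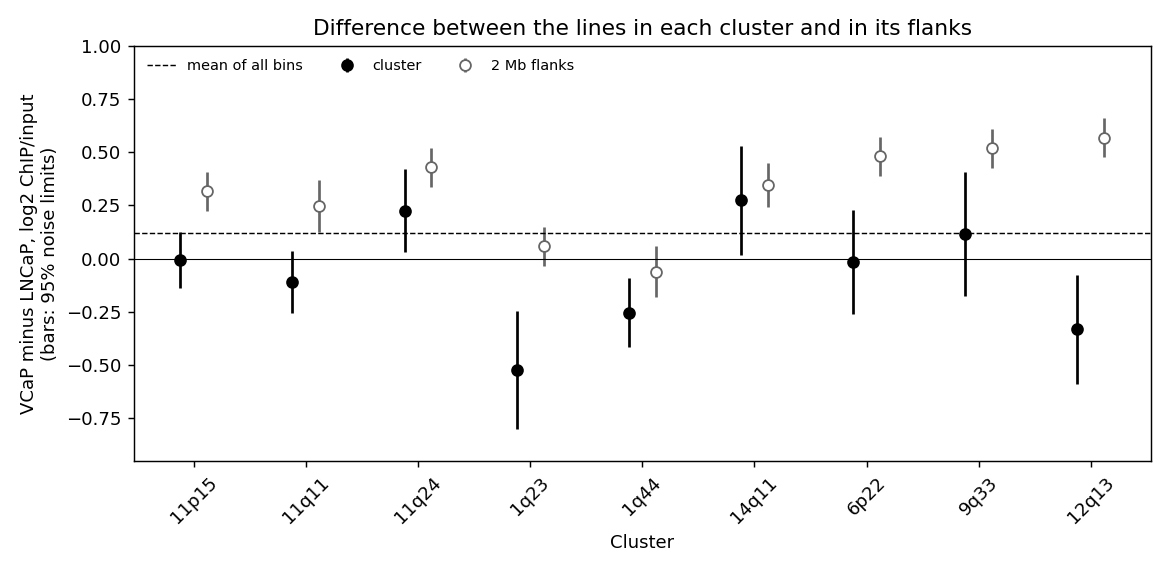
Mean VCaP minus LNCaP difference in log2 ChIP over input (vertical axis) of each cluster (filled points) and its flanks (open points), with bars for the 95% limits of noise and a dashed line at the mean of all bins, 0.12. The filled point lies below the open one at all 9 clusters.

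The flanks were read by distance from the cluster edge, as means over the 9 clusters. In LNCaP the mean was 0.15 ± 0.35 (SD over 9 clusters) within 200 kb, 0.01 ± 0.36 from 200 to 480 kb, 0.07 ± 0.29 from 480 to 1000 kb and 0.11 ± 0.23 from 1000 to 2000 kb. In VCaP it was 0.43 ± 0.16, 0.42 ± 0.21, 0.49 ± 0.19 and 0.35 ± 0.24 over the same distances.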

How the data were processed

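Lamin B1 ChIP and input libraries of LNCaP and VCaP were compared through 2 kinds of file. The deposited log2 values give ChIP over input of the same line per 40 kb bin, and a deposited table of states, named after a hidden Markov model, labels every bin AD or iAD. The build hg19 and the tool STAR are named in the submitters' processing notes without their role. How ChIP and input were scaled, and how reads from near-identical receptor gene copies were placed, is not given in the sources used here, and the second could change values in these clusters. Depth is unknown.

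Bins were assigned to a cluster when they overlapped it by at least 1 base. Flank entries wider than 1 Mb, 2 per line, span assembly gaps and were left out. The deposited values behave as trailing means of 3 entries: in entries wider than 1 bin, undoing such a mean took the median absolute log2 value from 0.21 to 0.01 in LNCaP and from 0.33 to 0.01 in VCaP. Signal therefore sits about 40 kb downstream, and a region was counted as 1 separate value per 3 bins. Noise is the median absolute difference of bins 3 apart, times 1.4826 and divided by the square root of 2, and the noise of a difference between lines adds both in quadrature. Background shares come from all consecutive windows of 14 bins (560 kb) with at least 10 flank bins.

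All 9 clusters are described, with the highest and lowest bin of each line. Gene names come from a RefSeq table of GRCh38.p14, in which all 23 listed genes were found. The members and lists were chosen with earlier results of these data known. The alternatives covered bin membership, averaging, flank width, zero point, scale and definition of the state. Procedures were tested on simulated data. Software was Python 3.11.15, with pandas 2.3.3, numpy 2.4.6 and matplotlib 3.10.9.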

Additional observations from a re-analysis of the deposited data

Results flagged for a closer look

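At 6 of the 9 clusters the mean lay above the flanks in LNCaP and below them in VCaP, where 16% of all windows of 14 bins did so. With 1 library pair per line, the difference was not tested. The cluster minus flank difference was 0.058 in LNCaP and -0.27 in VCaP at 11p15, 0.28 and -0.075 at 11q11, and 0.16 and -0.044 at 11q24. It was 0.40 and -0.19 at 1q23, 0.35 and -0.15 at 6p22, and 0.55 and -0.36 at 12q13. With flanks of 2 Mb and means over bins, both values were beyond noise at 12q13 only. By the same limits, not recomputed, they were so with flanks of 1 Mb at 11p15 (0.14 and -0.20) and 11q11 (0.34 and -0.23) too. For medians over bins they were so at 11p15 (0.11 and -0.15), though the noise of a median was not measured.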

How the results depend on the processing

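The 36 results were recomputed 261 times under an alternative, and no value beyond noise changed sign. Within noise, the difference between the lines changed sign at 9q33 (0.12) to -0.018, -0.045 and -0.065 with genome medians aligned, chromosome medians aligned and quantile normalization, and at 6p22 (-0.016) to 0.026 with chromosome medians aligned. Of the values that answer a comparison, 94 held and 14 moved. The count of clusters above their flanks in VCaP, 2, became 1 when each flank had to be exceeded alone, which took the LNCaP count from 8 to 6, and 1 among the 6 clusters with at least 40 bins in each flank. No share of all windows was taken for these stricter counts. Calling bins over 0 associated gave 85.7% in LNCaP and 86.2% in VCaP, and a threshold of 0.5 gave 34.5% and 29.6%, against 13.3% and 25.1% of all bins. The median of 0.39 became 0.44 for LNCaP and 0.33 for VCaP with clusters weighted equally. The median of the 203 cluster bins became 0.34 for LNCaP and 0.15 for VCaP after centring on the chromosome median. The mean difference between the lines inside the clusters, -0.07, became -0.20 with genome medians aligned, -0.20 with chromosome medians aligned and -0.24 after quantile normalization, so its size depends on the zero point. At 11q24, aligning chromosome medians took the difference between the lines from 0.23 to 0.03, and flanks of 1 Mb took the LNCaP difference from flanks from 0.16 to 0.31. Leaving out 1 cluster at a time, the associated share ran from 71.9% to 81.6% in LNCaP and from 63.7% to 73.7% in VCaP, the median enrichment from 0.34 (without 1q44) to 0.43 and from 0.35 to 0.41, and the mean difference between the lines from -0.10 to -0.03. With noise measured on the difference itself, 32 cluster bins were higher in LNCaP (14.4% of all bins were) and 14 in VCaP (28.0%), beyond noise. This measure of noise and keeping wide gap entries in the flanks were chosen after seeing the data. No paired analysis was possible because there was 1 library per group. With the depth unknown, noise between bins is the only limit given.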
